A study of Mus musculus with 6 samples.

Results

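The 4 mouse Hox clusters hold 38 of the genes followed here: 10 in cluster A on chromosome 6 (Hoxa2 to Hoxa13), 10 in cluster B on chromosome 11 (Hoxb1 to Hoxb13), 9 in cluster C on chromosome 15 (Hoxc4 to Hoxc13) and 9 in cluster D on chromosome 2 (Hoxd1 to Hoxd13). They were studied through accessible regions, chosen by position alone: every merged ATAC-seq peak overlapping 6:52120000-52300000 (A), 11:96070000-96290000 (B), 15:102820000-102960000 (C) or 2:74480000-74620000 (D) in GRCm39. This gave 193 of the 259376 mouse regions of the series, with 60 in the Hox A window, 60 in Hox B, 32 in Hox C and 41 in Hox D. Regions are numbered in each window from the low-coordinate end, so that A4 is the fourth region of Hox A.

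ATAC-seq, in which a transposase inserts adapters into open DNA, was run on E14TG2a mouse embryonic stem cells of 3 genotypes with 2 libraries each: WT, Alkbh5 KO (Alkbh5-/-) and Alkbh5 del-cIDR, an allele without the segment called cIDR, where IDR is an intrinsically disordered region. The ALKBH5 enzyme takes the N6-methyl mark off adenosines in RNA. All 3 genotypes grew with 15% serum, 1000 U/ml of the self-renewal factor LIF, the MEK inhibitor PD0325901 at 1 µM and the GSK3 inhibitor CHIR99021 at 3 µM, and each sample received 10 µl of nuclei as spike-in. Neither the number of clones behind a genotype nor whether its libraries came from separate cultures is given in the sources used here, so their spread may be technical only.

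Hox genes encode homeodomain transcription factors that assign position along the head-to-tail axis and the limbs. Their order along a chromosome follows the order of their expression domains: the low paralogue numbers act towards the head and the high ones towards the tail. In embryonic stem cells the clusters are a textbook target of Polycomb repression. Their promoters there carry activating and repressive histone marks together, and retinoic acid opens the clusters from the low-numbered end during differentiation. From low to high coordinate, the member genes run from Hoxa2 to Hoxa13 in cluster A, and in the opposite sense from the 13th paralogue to Hoxb1, Hoxc4 and Hoxd1 in the other three.

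The member promoters are rich in G, C and the dinucleotide CpG. RefSeq sequence (GRCm38.p6) was matched by symbol for 22 of the 38 genes, with 24 start sites, and the 250 bases before each start were examined. Their GC content had a median of 58.6% (40.4% to 80%), against 52.4% over all 32841 promoters of that table. They held a median of 12.5 CpG dinucleotides (2 to 35) against 6, and the ratio of observed to expected CpG had a median of 0.721 against 0.374. The first 3 sequences show the range: Hoxa13, a limb and hindgut gene, has the highest GC content and CpG count, Hoxa5 has the highest observed-to-expected ratio at 1.11, and the first of the Hoxd11 starts has the lowest at 0.160. CpG is in capitals. Each is read 5′ to 3′ on the strand of its gene, at chr6:52260881-52261130 (minus strand), chr6:52204588-52204837 (minus) and chr2:74679308-74679557 (plus) of GRCm38.p6.
Hoxa13: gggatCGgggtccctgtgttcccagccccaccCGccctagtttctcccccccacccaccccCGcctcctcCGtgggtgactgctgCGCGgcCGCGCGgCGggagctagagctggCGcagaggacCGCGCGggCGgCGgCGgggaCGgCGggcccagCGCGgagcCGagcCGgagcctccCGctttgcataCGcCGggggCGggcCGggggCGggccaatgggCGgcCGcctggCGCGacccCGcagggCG
Hoxa5: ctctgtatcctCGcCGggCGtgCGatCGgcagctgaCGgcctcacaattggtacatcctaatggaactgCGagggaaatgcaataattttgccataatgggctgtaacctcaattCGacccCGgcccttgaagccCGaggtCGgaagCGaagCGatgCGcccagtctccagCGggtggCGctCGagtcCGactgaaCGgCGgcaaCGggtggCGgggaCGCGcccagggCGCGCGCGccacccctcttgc
Hoxd11: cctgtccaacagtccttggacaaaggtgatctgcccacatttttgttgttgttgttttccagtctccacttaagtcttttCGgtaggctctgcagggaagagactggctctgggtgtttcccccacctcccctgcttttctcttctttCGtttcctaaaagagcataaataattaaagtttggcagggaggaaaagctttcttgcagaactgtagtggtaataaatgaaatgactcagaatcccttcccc
Hoxa2, which acts in the hindbrain and second branchial arch, shows the joint recognition sequence of PBX and HOX proteins, searched as TGATTGAT on both strands. It was present in 2 of the 24 member promoters, those of Hoxa2 and the other Hoxd11 start, and in 0.670% of all promoters; this motif was chosen after seeing the data. In Hoxa2 (chr6:52164832-52165081, minus strand, GRCm38.p6) it lies on the other strand, in capitals.
Hoxa2: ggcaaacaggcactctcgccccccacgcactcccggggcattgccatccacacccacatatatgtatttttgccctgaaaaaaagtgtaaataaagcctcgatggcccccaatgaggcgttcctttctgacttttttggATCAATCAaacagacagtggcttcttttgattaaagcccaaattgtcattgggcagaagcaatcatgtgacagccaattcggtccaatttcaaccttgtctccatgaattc
The core motif of the architectural factor CTCF was found in 0 of the 24 (0.308% of all promoters) and the DR5 retinoic acid response element in 0 of the 24 (0.0883% of all). These letters come from another build than the peaks, so no peak was tied to a single promoter.

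The height of a peak is the number of tags piled up at its summit, solved from the values deposited for it. Mouse peaks numbered 184884 to 193905 in the WT lists, 150680 to 164639 in KO and 155128 to 157931 in del-cIDR, and the genome-wide background was 1.01 to 1.26 tags. A region absent from a list was not necessarily closed, since peaks under the calling limit are not listed. For comparison between lists, each height was taken as log2 relative to the median of its own list over regions called in all 6 libraries on 16 reference autosomes (all but 6, 8 and 11). That median was 32 and 36 tags (WT), 33 and 25 (KO) and 32 and 31 (del-cIDR). Heights compared in this way belong to their own lists, and the smallest exact two-sided p that 2 libraries against 2 allow is 0.333, so differences are given per library, without a test, beside the same value over other regions.

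The Hox windows were densely covered with accessible regions. They held 2.84 regions per 10 kb, against 1.68 in the 8 windows of equal length adjoining them, and 15.0% of their length lay in a region against 6.81% in the flanks. Density was 3.33 in Hox A (flanks 1.58), 2.73 in Hox B (1.95), 2.29 in Hox C (2.04) and 2.93 in Hox D (1.04). The difference in density from the flanks was thus widest in Hox D and small in Hox C. Regions covered 16.0% of Hox A (flanks 6.15%), 12.3% of Hox B (8.43%), 15.9% of Hox C (8.07%) and 16.8% of Hox D (3.86%). In covered length the difference was therefore smallest in Hox B. The median gap between neighbouring regions was 2114 bp in Hox A, 2091 bp in Hox B and 2100 bp in Hox D, and 3843 bp in Hox C. The longest gap without a call in any library was 13677 bp, at 2:74594438-74608114 in Hox D.

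Of the 193 regions, 93 (48.2%) were called in all 6 libraries, against 38.3% of all mouse regions. The share was 62.5% in Hox C (20 regions) and 56.7% in Hox B (34), but 40.0% in Hox A (24) and 36.6% in Hox D (15), close to the share over all regions. Only 1 library called 46 of them (23.8%, against 25.2% of all regions); these were low, with 5 to 22 tags.

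Hox regions were broad and not tall. The median width of the 93 was 703 bp, against 555 bp for all regions called in all 6 libraries, and 27 of them (29.0%) spanned at least 1000 bp against 11.4%. Hox C and Hox D had the broadest, with medians of 983 bp and 1132 bp, while Hox B at 518.5 bp was below the genome-wide value. Elsewhere in the genome broad regions were tall: those of at least 1000 bp on the reference autosomes had a median scaled height of 1.02. The 27 broad Hox regions had a median of 0.27. Local background around Hox peaks was also raised, with a median of 2.88 and 3.13 tags (WT), 3.76 and 2.82 (KO) and 3.00 and 2.94 (del-cIDR), against 1.39 to 1.74 over all mouse peaks. Hox A had the highest local background, with 3.34 and 3.71 tags (WT), 5.53 and 4.27 (KO) and 3.66 and 3.43 (del-cIDR).

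**Figure D1:**
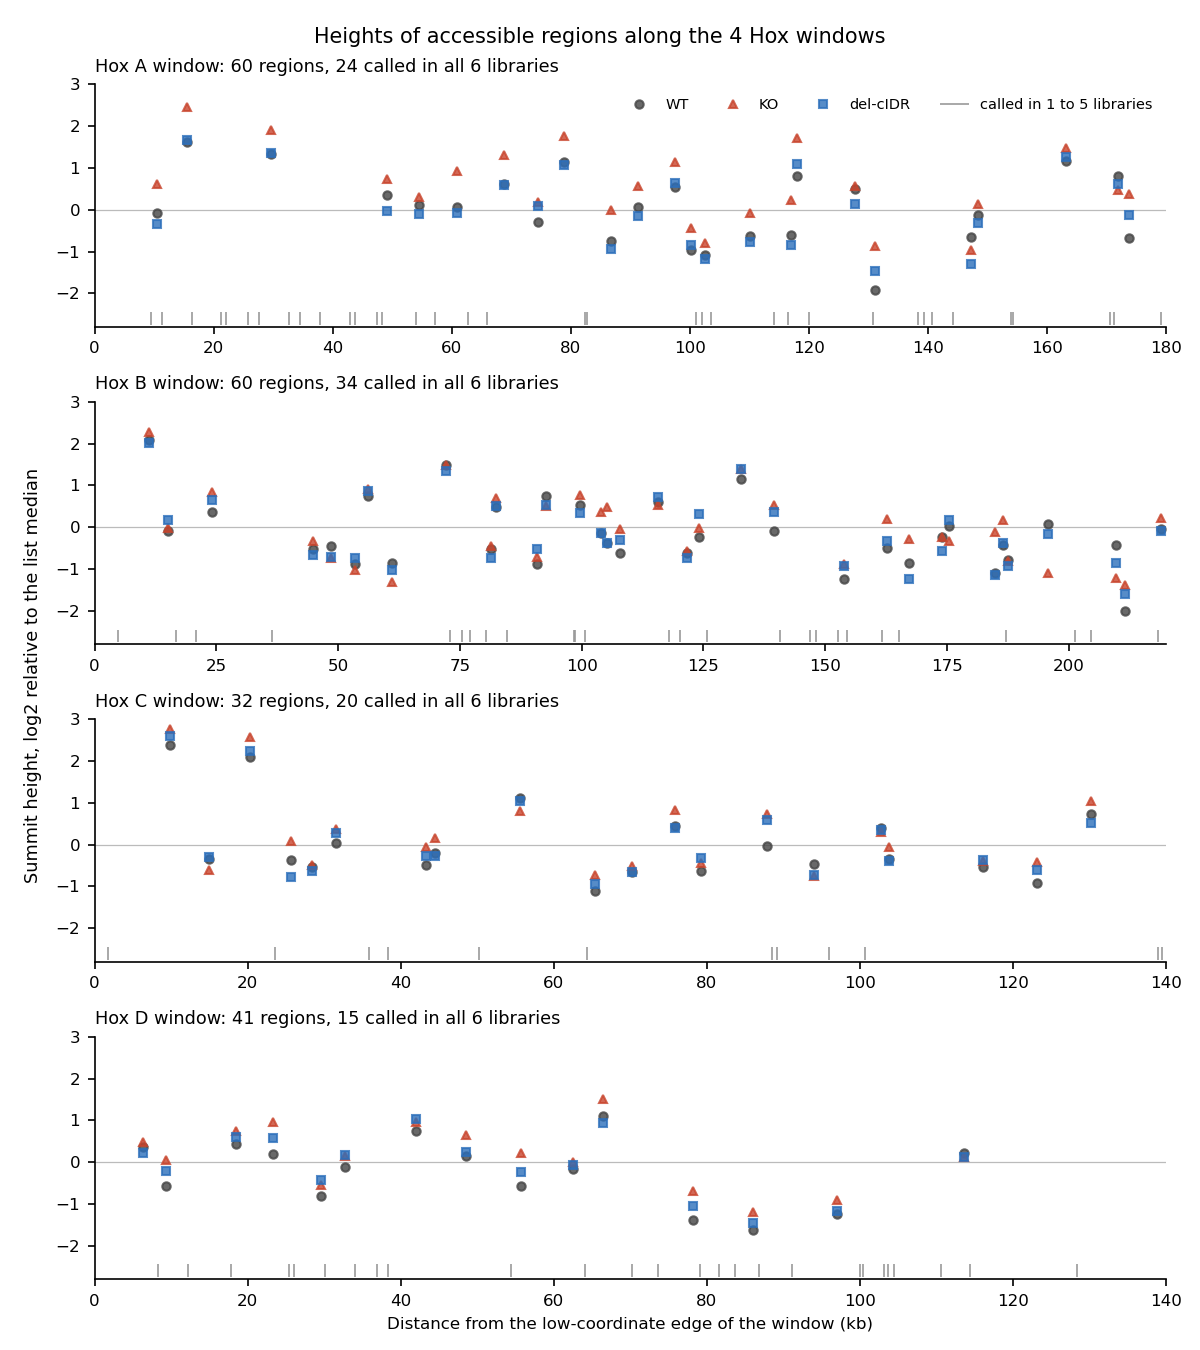
Mean scaled height of each Hox region called in all 6 libraries (y axis, log2 relative to the median of its own list) against distance from the low-coordinate edge of the window (x axis, kb), with WT as circles, KO as triangles and del-cIDR as squares; grey ticks mark regions called in 1 to 5 libraries. The tallest regions lie near the low-coordinate edge of Hox A, Hox B and Hox C, and KO triangles lie above WT in most Hox A and Hox D regions.

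A few tall regions stood out, most of them near the low-coordinate edge of a window. C2 (15:102829081-102830720) was the tallest, with 176 and 179 tags (WT), 219 and 177 (KO) and 191 and 192 (del-cIDR). C4 (15:102839910-102840655) had 146 and 146 tags (WT), 195 and 152 (KO) and 146 and 151 (del-cIDR). Both stood far above the remaining Hox C regions, whose next tallest, C14, had 68 and 80 tags (WT), 58 and 44 (KO) and 67 and 64 (del-cIDR).

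B2 (11:96080815-96081461) led Hox B with 131 and 158 tags (WT), 150 and 131 (KO) and 130 and 126 (del-cIDR). A4 (6:52135004-52136064) led Hox A with 96 and 114 tags (WT), 183 and 137 (KO) and 109 and 92 (del-cIDR). In A4 both KO libraries exceeded the other 4 in raw tags, although the second KO list was the lowest overall. Hox D had no region of this size: its tallest, D22 (2:74546168-74546617), had 68 and 77 tags (WT), 93 and 71 (KO) and 61 and 60 (del-cIDR).

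The other regions among the 5 tallest of each cluster were A10, A27, A55 and A42 (58 to 128 tags over the 6 libraries), B13, B36, B11 and B30 (34 to 103), C30 and C18 (39 to 63), and D16, D6, D7 and D1 (33 to 68). By position, with each window cut into 3 equal lengths, the median scaled height went from 0.36 through 0.08 to -0.10 in Hox A and from 0.35 through -0.13 to -0.48 in Hox D, from low to high coordinate. In Hox B it was 0.02, 0.03 and -0.59, and in Hox C -0.19, -0.02 and -0.35. The high-coordinate stretch was the lowest in all 4 windows; a stretch holds 2 to 13 of these regions. By gene order alone, the high paralogue numbers lie towards this end in cluster A and the low ones in the other clusters. Which genes, if any, lie within these stretches was not determined, since gene positions of the peaks' build were not used.

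Regions at the window edges were mostly low. Just inside, A1 and A60 were called in 1 library each (15 and 5 tags), D41 in 5 (10 to 15), C1 in 4 (8 to 13) and B1 in 4 (10 to 20), while C32 was called in the WT libraries alone (11 and 7 tags). B60, 923 bp inside the high edge of Hox B, had 25 to 40 tags, and D1 had 33 to 48. Just outside, the regions beside Hox B had 30 to 42 tags at the low edge and 31 to 62 at the high edge, and the one 500 bp below Hox C had 13 to 23. The nearest regions outside Hox A had 8 and 10 tags in 1 library each, and the one 678 bp below Hox D had 6 and 7 tags, in the WT libraries alone. The region 303 bp above Hox D was called in 5 libraries with 8 to 15 tags, much like D41 just inside.

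KO did not differ from WT in the number of Hox calls beyond the spread of the libraries, and Hox A was the window where clearly more length lay under KO peaks. WT lists held 131 and 140 Hox regions (135.5 ± 6.36, mean ± SD, n = 2), KO lists 138 and 123 (130.5 ± 10.6) and del-cIDR lists 128 and 127 (127.5 ± 0.707). Covered length was 64.4 ± 3.31 kb in WT, 68.9 ± 2.42 kb in KO and 65.4 ± 0.556 kb in del-cIDR. Its KO values, 70.6 and 67.2 kb, lay just above the WT values of 62.1 and 66.8 kb. In Hox A, KO had 43 and 36 called regions against 34 and 35 in WT and 35 and 33 in del-cIDR, with 20.2 ± 1.15 kb covered against 15.9 ± 0.634 kb and 16.8 ± 0.717 kb. The Hox A libraries of KO lay above all others in both measures. Hox A is on chromosome 6, where heights were higher in KO as a whole. KO and WT covered 17.4 ± 0.626 and 17.8 ± 1.31 kb in Hox B, 15.9 ± 0.452 and 16.3 ± 0.302 kb in Hox C, and 15.3 ± 0.183 and 14.5 ± 1.06 kb in Hox D. In Hox B it was WT that had more calls, 46 and 49, against 42 and 41 (KO) and 40 and 43 (del-cIDR).

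**Figure D2:**
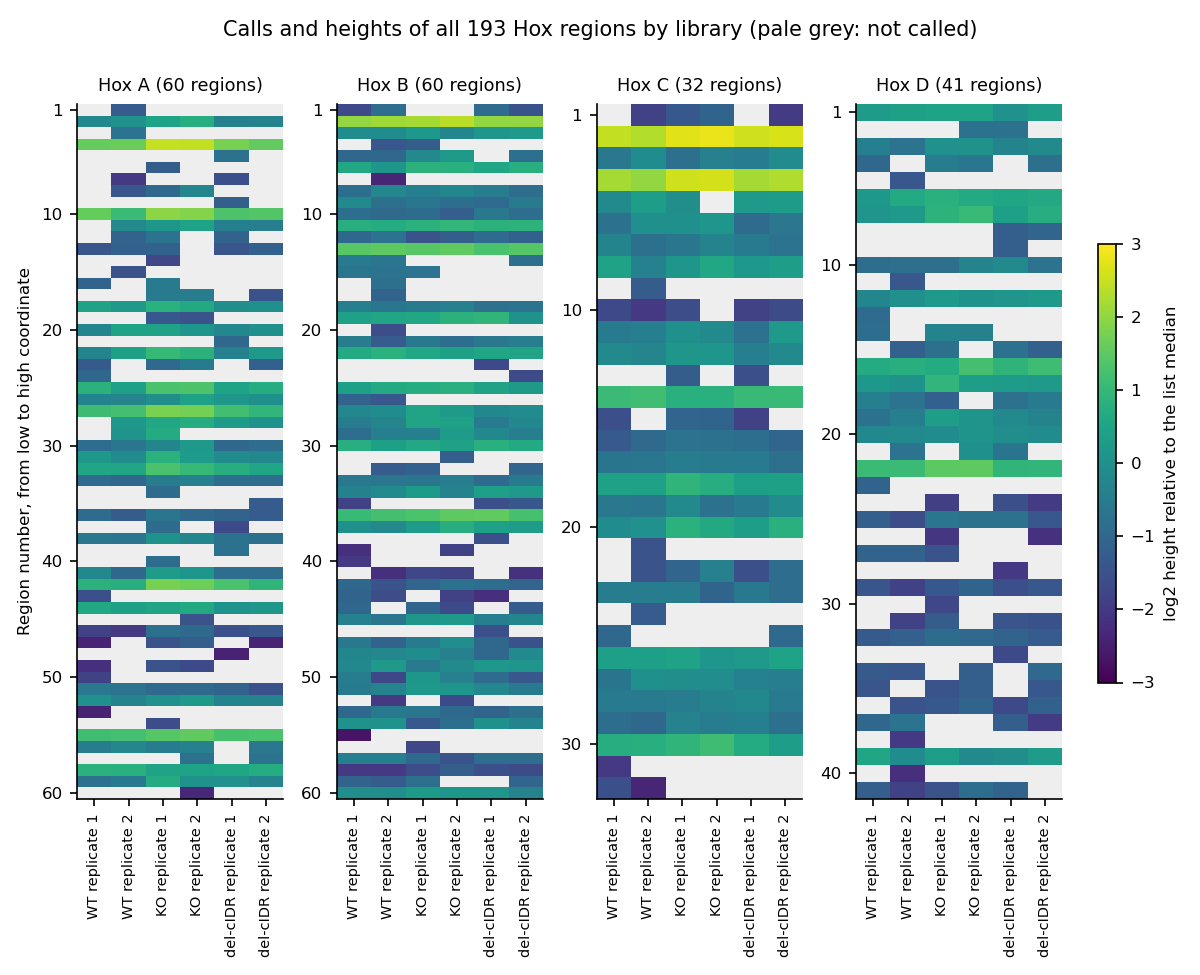
All 193 Hox regions (rows, numbered from low to high coordinate) in the 6 libraries (columns), with scaled height as colour (log2 relative to the median of the list) and pale grey where a region was not called. The 93 regions called in every library form unbroken rows, and calls in 1 library are mostly dark, meaning low.

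Few Hox regions were called in one genotype and missing from another. WT had 5 that KO lacked in both libraries, of 110 called in both WT libraries; over all regions the share was 12.5%. They were B14 (22 and 23 tags in WT), D37 (16 and 22), B1 (10 and 20), B26 (15 and 14) and C32 (11 and 7). The reverse held for 2 of 113, A17 (23 and 18 tags in KO) and A19 (13 and 9), against 3.96% over all regions. Both lie in Hox A, which had 2 of 33 (6.06%), against 7.65% on the rest of chromosome 6. Hox B, C and D together had 0 of 80. Over all Hox windows the shares were 4.55% (WT not KO) and 1.77% (KO not WT). They depend on list length: with lists of equal length, WT had 3 of 92 that KO lacked (3.26%, against 8.4% of all regions) and KO had 12 of 111 that WT lacked (10.8%, against 7.5% of all regions). The Hox share of calls that KO had and WT lacked was thus below the genome-wide share with the full lists and above it with equal lists. With equal lists Hox A held 5 of these 12, a share of 16.1%, against 13% on the rest of chromosome 6. The others were 2 of 37 in Hox B (5.41%), 2 of 23 in Hox C (8.7%) and 3 of 20 in Hox D.

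Between WT and del-cIDR, 4 of 110 were called in WT alone (9.2% over all regions): B15 (20 and 22 tags in WT), D27 (15 and 17), B26 and C32. In the other direction there were 2 of 108 (1.92% over all), D8 (14 and 15 tags in del-cIDR) and D24 (11 and 8). Both lie in Hox D. Between the mutants, del-cIDR had 4 of 108 that KO lacked (7.38% over all), namely D8, D37, B1 and B35 (11 and 12 tags). KO had 4 of 113 that del-cIDR lacked (7.32% over all): D14 (27 and 19 tags in KO), A8 (17 and 21), A19 and A49 (12 and 8). In Hox A that last share was 3 of 33 (9.09%), against 14.1% on the rest of chromosome 6. All of these regions were low, with at most 27 tags. B26 and C32, missing from both mutants, had 7 to 15.

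Summit heights were higher in KO than in WT in all 4 clusters. The median scaled height of Hox A was -0.07 and 0.15 (WT), 0.49 and 0.46 (KO) and -0.07 and 0.00 (del-cIDR). In Hox B it was -0.30 and -0.22 (WT), 0.17 and -0.09 (KO) and -0.19 and -0.28 (del-cIDR). In both clusters KO lay above WT without overlap and del-cIDR overlapped WT.

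In Hox C the medians were -0.39 and -0.17 (WT), 0.00 and 0.05 (KO) and -0.39 and -0.10 (del-cIDR). In Hox D they were -0.19 and -0.08 (WT), 0.35 and 0.11 (KO) and -0.05 and 0.22 (del-cIDR). KO again lay above WT without overlap. Hox D was the only one of the 4 in which both del-cIDR values also lay above both WT values, and there the mutants overlapped each other.

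**Figure D3:**
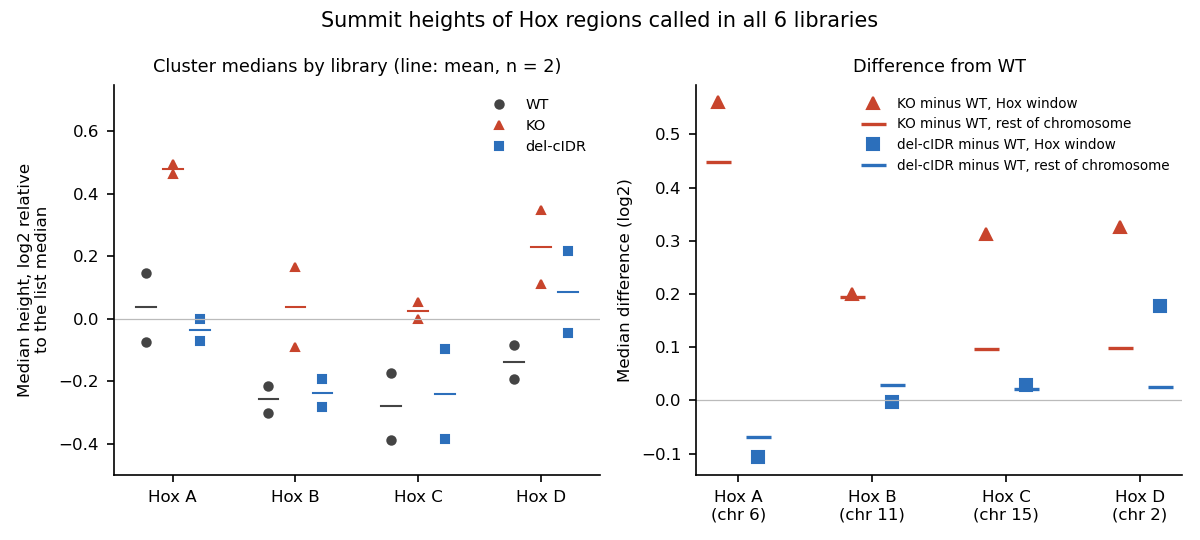
Left: median scaled height (y axis, log2 relative to the list median) of the Hox regions called in all 6 libraries, 1 point per library and a line at the mean of 2. Right: median difference from WT (y axis, log2) in each Hox window (triangles KO, squares del-cIDR) beside the rest of its chromosome (bars of the same colour); Hox A and Hox B lie nearer to the KO bar of their chromosome than Hox C and Hox D do.

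The median difference over regions, KO minus WT, was 0.56 in Hox A, 0.20 in Hox B, 0.31 in Hox C and 0.33 in Hox D (log2). Other regions were higher in KO as well: the same median was 0.13 over all regions, 0.09 on the reference autosomes, 0.45 on the rest of chromosome 6, 0.19 on the rest of chromosome 11, 0.10 on the rest of chromosome 15 and 0.10 on the rest of chromosome 2. Relative to the rest of chromosome 6, the Hox A difference was 0.11, less than the spread of the libraries (0.16, the SDs of both genotypes combined as the root of their summed squares), and it was 0.0098 with the deposited fold in place of tags. Hox B differed from the rest of chromosome 11 by 0.01. Chromosome 11 is itself uneven, and beyond 56 Mb, the part that holds Hox B, its median was 0.11. The 8 flanks had a median of 0.27 together, with 0.38 beside Hox A, 0.24 beside Hox B, 0.24 beside Hox C and 0.29 beside Hox D. Hox C and Hox D thus stood above their chromosomes by more than they stood above their own flanks.

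Counted by region, both KO heights lay above both WT heights in 57 of the 93 Hox regions (61.3%), against 40.6% of all regions. Both WT heights lay above both KO heights in 7 (7.53%), against 20.6%. In the 8 flanks together the shares were 53.3% and 13.3%, nearer to those of the Hox windows. KO lay above WT in 61.9% of regions beside Hox A, 59.5% beside Hox B, 39.1% beside Hox C and 44.4% beside Hox D. Hox A gave 18 of 24 (65.4% on the rest of chromosome 6), Hox D 12 of 15 (37.5% on the rest of chromosome 2), Hox C 11 of 20 (36.4% on the rest of chromosome 15) and Hox B 16 of 34 (47.3% on the rest of chromosome 11). The Hox B share, 47.1%, was near that of its whole chromosome but above the 38.7% of chromosome 11 beyond 56 Mb, the part that holds Hox B. The Hox D share lay furthest above that of its chromosome. WT was above KO in 4 regions of Hox B (11.8%, against 17.1% on the rest of chromosome 11) and 2 of Hox A (8.33%, against 7.92% on the rest of chromosome 6). It was above KO in 1 region of Hox C (5%, against 22.3% on the rest of chromosome 15) and 0 of Hox D (21.9% on the rest of chromosome 2).

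Width moved with this difference. On the reference autosomes the median KO minus WT difference was 0.02 in regions up to 300 bp, 0.06 from 500 to 700 bp, 0.16 from 700 to 1000 bp, 0.28 from 1000 to 1500 bp and 0.37 above that. Regions of at least 1000 bp had 0.30 on the reference autosomes and 0.69 on chromosome 6, with both KO heights above both WT heights in 64% and 85.1%. In Hox B, C and D together the difference was 0.32 in the 20 broad regions and 0.22 in the 49 narrower ones, against 0.06 in narrower regions of the reference autosomes. In Hox A it was 0.54 in 7 broad and 0.58 in 17 narrower regions, against 0.42 in narrower regions of chromosome 6. Set against regions of the same width class, an alternative added after seeing the data, the KO minus WT difference was 0.03 in Hox A (on chromosome 6), 0.14 in Hox B, 0.10 in Hox C and 0.14 in Hox D. Local background, in tags not scaled to the list, was above both WT values in both KO libraries of Hox A and Hox D. In Hox B it was 3.22 and 2.54 (KO) against 2.69 and 2.96 (WT), and in Hox C 3.66 and 2.72 against 2.98 and 2.99. With the deposited fold, which divides the height by that background, the KO minus WT differences were 0.16 in Hox A, 0.14 in Hox B, 0.13 in Hox C and 0.23 in Hox D. The part of width and of local background in the result was not tested.

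**Figure D4:**
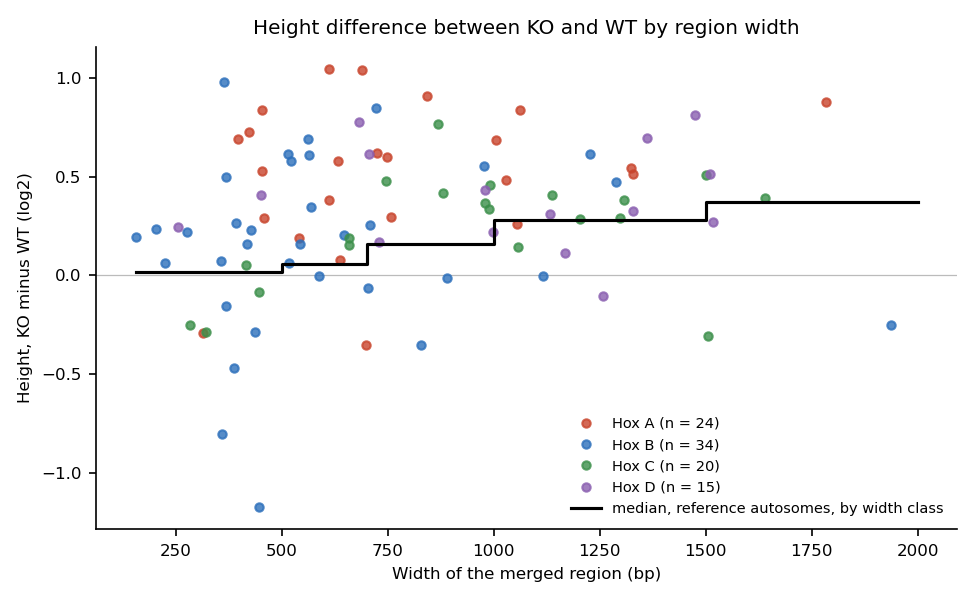
KO minus WT difference in scaled height (y axis, log2) of the 93 Hox regions called in all 6 libraries against region width (x axis, bp), 1 point per region, coloured by cluster; the black line is the median of the reference autosomes in width classes, from 0.02 to 0.37. Most Hox A points lie above the line, and the lowest points are narrow Hox B regions. The line leaves out chromosome 6, where heights were higher in KO as a whole. Against chromosome 6 regions of the same width class the median Hox A difference was 0.03.

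For del-cIDR no cluster differed from WT by more than the spread of the libraries. The median difference, del-cIDR minus WT, was -0.11 in Hox A, 0.00 in Hox B, 0.03 in Hox C and 0.18 in Hox D, against -0.07, 0.03, 0.02 and 0.03 on the rest of the same chromosomes. The Hox D value was nearest to its spread of 0.20. Both del-cIDR heights lay above both WT heights in 24 of 93 Hox regions (22.9% of all regions), of which 8 were among the 15 of Hox D (23.7% on the rest of chromosome 2) and 6 among the 24 of Hox A (14.7% on the rest of chromosome 6), and below both in 19 (21.3% of all), of which 8 were in Hox A. The Hox A share below WT, 33.3%, compares with 29.1% on the rest of chromosome 6. The flanks of Hox D had a del-cIDR minus WT median of 0.12 over 9 regions. Within Hox D the difference was 0.30 in the low-coordinate stretch, 0.14 in the middle and -0.02 in the last (7, 6 and 2 regions). Broad regions of the reference autosomes had 0.10.

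Between the mutants, Hox A was lower in del-cIDR than in KO by about as much as its chromosome. The median difference, del-cIDR minus KO, was -0.57 in Hox A and -0.53 on the rest of chromosome 6, which leaves -0.04. It was -0.17 in Hox B, -0.17 in Hox C and -0.26 in Hox D, against -0.17, -0.08 and -0.08 on the rest of chromosomes 11, 15 and 2. Hox B thus equalled the rest of chromosome 11 as a whole, but beyond 56 Mb, the part that holds Hox B, the median of that chromosome was -0.095. The differences of Hox B and Hox C were smaller than the spread of the libraries (0.19 and 0.21). With the deposited fold they were -0.028 in Hox B, 0.020 in Hox C and -0.053 in Hox D, and leaving out 1 library brought them down to -0.036 in Hox B (without KO replicate 2), -0.10 in Hox C and -0.12 in Hox D (both without del-cIDR replicate 2). Both KO heights lay above both del-cIDR heights in 53 of 93 Hox regions (39.5% of all regions), of which 22 were among the 24 of Hox A, where the rest of chromosome 6 gave 71.4%. The opposite held in 8 (20.1% of all), of which 1 was in Hox A (5.59% on the rest of chromosome 6). Another 6 were in Hox B, a share of 17.6%, against 16.5% on the rest of chromosome 11 and 20% beyond 56 Mb. The KO and del-cIDR comparisons with WT share the WT libraries. KO above and del-cIDR below WT, without overlap, was seen in 9 of the 93 (5.79% of all regions), 5 of them in Hox A (15.8% on the rest of chromosome 6), and the mirror pattern in 0 (2.77% of all and 0.68% on the rest of chromosome 6).

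Single regions departed from their clusters; those named are the furthest among regions whose compared genotypes did not overlap. B54 (11:96265631-96266077) was the region with the largest deficit in KO, with 34 and 38 tags (WT), 13 and 14 (KO) and 32 and 25 (del-cIDR). Its KO minus WT difference was -1.17, a value that 0.837% of all regions reached or passed in that direction, while its cluster was higher in KO. Both KO libraries were low, and both del-cIDR libraries lay below WT by less (-0.24). B57 (11:96279589-96279947), nearer the high edge, had 24 and 27 tags (WT), 17 and 9 (KO) and 18 and 17 (del-cIDR), a difference of -0.80 in KO and -0.43 in del-cIDR. B12 had 16 and 22 tags (WT), 12 and 11 (KO) and 17 and 14 (del-cIDR) (-0.47 in KO).

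By size alone, not set against their chromosomes, the largest KO excesses were in Hox A and Hox B. The median KO minus WT difference was 0.45 on the rest of chromosome 6 and 0.19 on the rest of chromosome 11. It was 0.10 on the rest of chromosomes 2 and 15, where D7 differed by 0.78 and C20 by 0.77. The order of regions after such a correction was not computed. A46 (6:52250830-52251441) had 9 and 9 tags (WT), 19 and 13 (KO) and 11 and 12 (del-cIDR), a KO minus WT difference of 1.05 that 1.47% of all regions reached. A59 (6:52293448-52294135) had 19 and 24 tags (WT), 53 and 26 (KO) and 33 and 25 (del-cIDR), a difference of 1.04 that rests more on the first KO library. B50 (11:96254621-96254984) had 23 and 11 tags (WT), 37 and 19 (KO) and 17 and 12 (del-cIDR), a difference of 0.98 with WT libraries far apart.

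**Figure D5:**
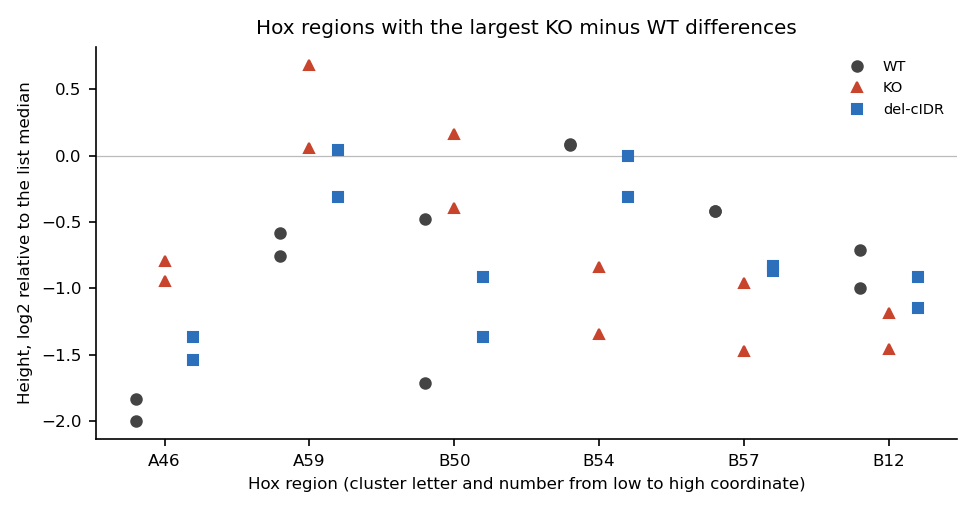
Scaled heights (y axis, log2 relative to the list median) of the 3 Hox regions with the largest KO excess over WT and the 3 with the largest deficit (x axis), 1 point per library; where a group shows 1 point, its libraries coincide. In B54 the KO points lie below WT and del-cIDR, and in A46 they lie above both.

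Against WT, del-cIDR was highest in C20 (15:102907398-102908266), which had 30 and 37 tags (WT), 59 and 39 (KO) and 41 and 54 (del-cIDR), a difference of 0.61. KO was higher than WT there too, by 0.77. B34 followed at 0.56 and A59 at 0.54. The lowest without overlap were A51 (6:52267073-52267387), with 21 and 22 tags (WT), 17 and 13 (KO) and 15 and 11 (del-cIDR) (-0.63), then B57 and A18 (-0.38). Against KO, del-cIDR was lowest in A41 (-1.09), B50 (-1.03) and A22 (-1.01), and highest in B54 (0.94), B49 (0.49) and B57 (0.37). The rest of chromosome 6 had a median of -0.53 for that difference, and the rest of chromosome 11 had -0.17. The members of each set were picked as extremes of 93 regions, so these values describe them and support nothing further.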

How the data were processed

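Chromatin accessibility was measured in 6 libraries, 2 per genotype, grouped by sample title. The submitters' processing notes name MACS2, BWA, fastp, Picard, SAMtools and featureCounts with the build GRCm39, without version or setting. The authors called peaks per library, not on pooled replicates, and deposited for each a fold, the ratio of summit pileup to local background. The authors also computed and deposited −log10 of each peak's p and q, and none has a q above 0.05. The score that the authors deposited beside them, made in a way the sources used here do not state, and the summit offset were not used. From fold and −log10 p the summit tags solved to whole numbers within 0.1 in 100% of peaks. Total reads are not analysed here.

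Mouse peaks overlapping by at least 1 bp were merged (Python 3.11.15, pandas 2.3.3, SciPy 1.17.1), with spike-in peaks left out. Genotypes were compared by calls and by log2 height relative to the list median, per library, without a test; the scripts were tested on simulated data. The named regions are the 5 tallest per cluster, up to 5 with a genotype-specific call per direction, the 3 with the largest non-overlapping height difference per direction and comparison, and those nearest the window edges. The members and lists were chosen with earlier results of these data known. Gene positions of the peaks' build were not used, so peaks at gene starts, stem cell markers, the targeted Alkbh5 segment, further pathway genes and motifs within peaks were not analysed here. Alternatives covered the q limit, equal list lengths, merging overlap, the reference, region width, window edges, heights under 20 tags and leaving out each library.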

Additional observations from a re-analysis of the deposited data

Results flagged for a closer look

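In 9 of the 93 Hox regions called in all 6 libraries, both KO libraries lay above and both del-cIDR libraries below both WT libraries in scaled height. The difference between the effects was not tested, and both effects share the WT libraries. The share was 9.68% against 5.79% over all regions; in Hox A it was 5 of 24 (20.8%) against 15.8% on the rest of chromosome 6. The mirror pattern occurred in 0 of 93, against 2.77% over all regions.

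Of the 9, 5 lie in Hox A. A2 differed from WT by 0.69 in KO and by -0.26 in del-cIDR, with 28 and 37 tags (WT), 46 and 42 (KO) and 25 and 25 (del-cIDR). A18 had 0.38 and -0.38, A30 0.73 and -0.20, A31 0.51 and -0.21, and A38 0.54 and -0.14. The rest of chromosome 6 had medians of 0.45 and -0.07 for the same differences.

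The others include some of the tallest Hox regions. D22, the tallest of Hox D, had 0.41 in KO and -0.15 in del-cIDR, and B2, the tallest of Hox B, had 0.20 and -0.06. C18 had 0.41 and -0.04, and C30 0.29 and -0.23. In each of the 9 the del-cIDR difference was smaller in size than the KO difference, though nearly equal in A18.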

How the results depend on the processing

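No height difference larger than its spread changed direction under any alternative run. Counts of genotype-specific calls moved most. With lists of equal length they were 3 for WT not KO, 12 for KO not WT, 1 for WT not del-cIDR and 7 for del-cIDR not WT. The Hox shares were 3.26%, 10.8%, 1.09% and 6.73% in that order, against 8.4%, 7.5%, 4.95% and 4.59% of all regions. Of the 12 for KO not WT, 5 were in Hox A (16.1%, against 13% on the rest of chromosome 6). For the alternatives that follow, the share over all regions was not computed, so their counts describe the Hox windows only. With peaks of −log10 q of at least 5 the counts were 5 for KO not WT, 2 for WT not del-cIDR, 1 for del-cIDR not WT and 2 for del-cIDR not KO. Merging at 100 bp gave 1 for del-cIDR not WT, and windows shortened by 20 kb at each end gave 3 for WT not KO. Leaving out 1 library loosens the rule, and each of the 6 moved at least 1 count by over 1.5 times: the counts ran from 5 to 21 for WT not KO, 2 to 14 for KO not WT, 4 to 23 for WT not del-cIDR, 2 to 16 for del-cIDR not WT, 4 to 17 for del-cIDR not KO and 4 to 17 for KO not del-cIDR.

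KO minus WT heights stayed above 0 in all 4 clusters under every alternative run. With the deposited fold in place of tags the difference was 0.16 in Hox A and 0.13 in Hox C; with the own chromosome as reference it was 0.11 in Hox A and 0.0052 in Hox B; with regions of the same width class it was 0.033 in Hox A, 0.097 in Hox C and 0.14 in Hox D. For del-cIDR minus KO, Hox A was -0.10 with the fold, -0.0395 against its own chromosome, -0.0087 within width classes, -0.49 with the median difference of the reference autosomes subtracted, and -0.66 in regions of at least 20 tags. Relative to chromosome 6 that value was -0.096 at the stricter q limit, 0.046 with the fold and -0.095 in regions of at least 20 tags, so its sign is not settled. Width classes, the subtracted median, shortened windows and the 20-tag limit were added after seeing the data. Leaving out each library gave KO minus WT of 0.49 to 0.57 in Hox A, 0.15 to 0.23 in Hox B, 0.27 to 0.31 in Hox C, 0.26 to 0.39 in Hox D and 0.06 to 0.14 in Hox A relative to chromosome 6. It gave del-cIDR minus WT of -0.11 to 0.03 in Hox A, -0.033 to 0.15 in Hox B (the highest without del-cIDR replicate 2), 0.01 to 0.11 in Hox C and 0.10 to 0.20 in Hox D. Del-cIDR minus KO ran from -0.63 to -0.43 in Hox A and from -0.16 to 0.041 relative to chromosome 6. The causes of these shifts were not tested.

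With the replicate number as a block, KO minus WT was 0.54 in Hox A, 0.19 in Hox B, 0.27 in Hox C and 0.42 in Hox D, and no result moved beyond its spread. The replicate numbers share no stated origin. Deviations of same-numbered libraries correlated at 0.00 (KO and WT), -0.01 (del-cIDR and WT) and 0.01 (del-cIDR and KO) over 99216 regions. Over the Hox regions alone the values were 0.11, 0.07 and -0.14 in that order. The alternative that places the window centre by gene starts was not run, since no annotation of the peaks' build was used. A peak list shows no height below its calling limit, so absence of a call is not absence of access.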
